A study of Mus musculus with 15 samples.

Results

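The peaks at 3 genes for transcription factors of the intestinal secretory lineage, Gfi1, Sox9 and Klf4, were described across 12 deposited peak lists. Members were all peaks that overlap the mm9 windows chr5:108120000-108180000 (Gfi1), chr11:112620000-112675000 (Sox9) and chr4:55515000-55570000 (Klf4). These were 167 of 778471 peaks, with 47 at Gfi1, 54 at Sox9 and 66 at Klf4. The windows were taken by position as belonging to the 3 genes. No mm9 gene table was used here, so no peak is assigned to a promoter, exon or intron.

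Absorptive and secretory cells of the gut lining arise from stem cells at the crypt base, and Notch signalling decides between them. Active Notch works through the DNA-binding protein RBPJ to keep the basic helix-loop-helix factor ATOH1 off, which favours the absorptive fate, and ATOH1 is needed for goblet, Paneth and enteroendocrine cells. GFI1 is a zinc finger repressor that acts after ATOH1 in goblet and Paneth cells and is known to restrain the enteroendocrine programme. SOX9 is an HMG-box factor of crypt base stem and progenitor cells, answers to Wnt signalling and is required for Paneth cells. KLF4 is a zinc finger factor of differentiated villus cells and is known for its role in goblet cell maturation. Among the chromatin readouts, dimethylated lysine 4 of histone H3 (H3K4me2) marks promoters and enhancers, acetylated lysine 27 (H3K27ac) marks active ones, and DNase I hypersensitive sites (DHS) mark open chromatin.

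All populations came from the intestinal epithelium of C57BL/6 mice. For immunoprecipitation, chromatin was fixed in formaldehyde and sheared by sonication, while the DHS libraries are DNase-seq. ISC are Lgr5+ stem cells sorted by GFP from crypts of Lgr5-eGFP-Cre mice, in 1 H3K4me2 library. Sec-Pro are crypt secretory progenitors, enriched either by the Notch inhibitor dibenzazepine (DBZ) or by deletion of Rbpj, with 1 H3K4me2 library of either preparation and 1 library each for H3K27ac, DHS and ATOH1. The labels name neither the Sec-Pro preparation used for those last 3 assays nor a sort, and how many other crypt cells remained is unknown. Ent-Pro are enterocyte progenitors from crypts of Atoh1-/- mice, which have no secretory cells, with 2 H3K4me2 libraries and 1 each for H3K27ac and DHS. GOB are mature goblet cells from Rbpj-/- villi and ENT are mature enterocytes from Atoh1-/- villi, with 1 H3K4me2 library each. ATOH1 was precipitated with a FLAG antibody. All Sec-Pro and GOB libraries come from Rbpj deletion or DBZ, and all Ent-Pro and ENT libraries from Atoh1-/- mice. The effect of lineage and that of the deletion or drug thus cannot be told apart. What drives the deletions is not in the labels. Nothing states that replicate libraries came from separate animals, so their spread may be technical.

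The lists held 63293 to 92279 peaks for H3K4me2, 68764 and 74483 for H3K27ac, 31980 and 38595 for DHS, and 15240 for ATOH1. Read depth is unknown. The authors' score for each peak, whose unit the files do not name, was used here to rank peaks within their own list. A score percentile is the share of that list's peaks with a lower score. The H3K4me2 lists fell into 2 sets by their shortest peak. It was 146 bp in the shorter-peak lists (ISC, DBZ Sec-Pro, Ent-Pro replicate 1, GOB and ENT) and 200 bp in the longer-peak lists (Rbpj-/- Sec-Pro and Ent-Pro replicate 2). Differences between progenitors are therefore also given within a set, though the labels name no such sets and pair no libraries. The highest score of the ISC list was 37.7, against 217.7 to 320.6 in the other H3K4me2 lists, and it covered 33.4 Mb, against 57.0 to 75.0 Mb.

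ATOH1 binds E-boxes, written CANNTG, and the promoters of Gfi1 and Klf4 are shown because ATOH1 peaks occurred in both windows. Gfi1 and Klf4 matched the RefSeq promoter table, Gfi1 with 2 start sites, and Sox9 did not. The sequences run 5′ to 3′ on the minus strand, where all 3 start sites lie, from 250 bases before to 50 bases after the start. Capitals mark each CANNTG. The build is GRCm38.p6, with positions chr5:107724294-107724593, chr5:107725756-107726055 and chr4:55532426-55532725 in order, and these cannot be set beside the mm9 positions of the peaks.
Gfi1, lower-numbered start: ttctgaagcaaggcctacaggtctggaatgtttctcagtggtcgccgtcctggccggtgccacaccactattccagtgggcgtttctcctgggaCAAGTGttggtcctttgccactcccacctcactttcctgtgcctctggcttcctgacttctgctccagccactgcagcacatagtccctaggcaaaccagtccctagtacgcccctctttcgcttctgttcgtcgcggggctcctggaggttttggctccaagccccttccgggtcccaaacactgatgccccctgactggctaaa
Gfi1, higher-numbered start: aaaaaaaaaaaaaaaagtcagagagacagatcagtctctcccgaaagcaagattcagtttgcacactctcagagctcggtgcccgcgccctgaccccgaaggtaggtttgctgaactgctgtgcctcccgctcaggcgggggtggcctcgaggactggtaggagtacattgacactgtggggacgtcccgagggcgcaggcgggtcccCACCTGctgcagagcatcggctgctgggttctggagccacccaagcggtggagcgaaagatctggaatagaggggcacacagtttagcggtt
Klf4: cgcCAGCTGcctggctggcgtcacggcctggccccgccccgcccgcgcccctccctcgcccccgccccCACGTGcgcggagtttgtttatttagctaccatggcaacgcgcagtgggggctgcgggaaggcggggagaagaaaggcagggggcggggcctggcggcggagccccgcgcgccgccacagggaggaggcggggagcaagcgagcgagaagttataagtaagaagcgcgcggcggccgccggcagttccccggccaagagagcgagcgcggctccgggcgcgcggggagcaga
The Gfi1 promoters held 1 E-box each, CAAGTG beginning at -156 and CACCTG beginning at -42 relative to the start site. The Klf4 promoter held 2, CAGCTG at -247 and CACGTG at -182. CANNTG reads the same on both strands and occurred at least once in 72.3% and at least 2 times in 39.6% of 32851 promoters of 300 bases. CAGCTG, a form of CANNTG, occurred in 16.3% of them. The letters are common, and a match is a description of sequence and not a bound site.

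The 3 genes differed in which populations carried the broadest H3K4me2, taken in base pairs as deposited. GOB had the longest H3K4me2 cover of the 7 libraries at Gfi1, the 4 crypt progenitor libraries had the longest at Sox9, and at Klf4 GOB and ENT were nearly equal and ISC lowest. Cover is the length of the window under H3K4me2 peaks of 1 library. The place of ISC depended on the length of its list: per Mb of the list, ISC was highest of the 7 at Sox9 and was not lowest at Klf4.

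**Figure D1:**
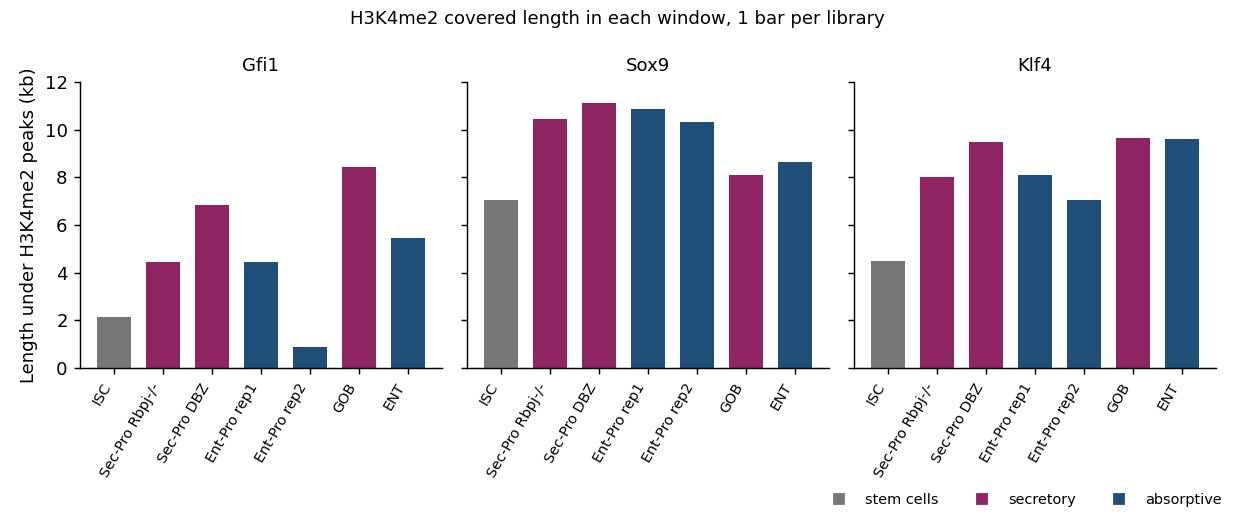
Length of each window under H3K4me2 peaks (kb), 1 bar per library with no error bar, grey for stem cells, magenta for the secretory and blue for the absorptive populations. GOB is highest at Gfi1 with 8414 bp, the 4 progenitor bars at Sox9 lie between 10317 and 11094 bp above both mature bars, and ISC is lowest in bp at Sox9 and Klf4, though not per Mb of its list.

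At Gfi1, H3K4me2 was broadest in goblet cells and narrowest in 1 of the Ent-Pro libraries. The covered length was 2150 bp in ISC, 4432 bp in Rbpj-/- Sec-Pro, 6841 bp in DBZ Sec-Pro, 4452 bp in Ent-Pro replicate 1, 891 bp in Ent-Pro replicate 2, 8414 bp in GOB and 5472 bp in ENT. In ascending order this is Ent-Pro replicate 2, ISC, Rbpj-/- Sec-Pro, Ent-Pro replicate 1, ENT, DBZ Sec-Pro and GOB. The Sec-Pro and Ent-Pro libraries overlapped, since Ent-Pro replicate 1 stood just above Rbpj-/- Sec-Pro. Sec-Pro averaged 5636.5 ± 1703 bp (SD, n = 2) and Ent-Pro 2671.5 ± 2518 bp (SD, n = 2), a difference of 2965 bp (exact two-sided permutation p = 0.667, also 0.667 after Benjamini-Hochberg adjustment over the 3 windows, where 0.3333 is the smallest p that 2 against 2 allows). Within the sets by shortest peak Sec-Pro was longer, by 2389 bp in the shorter-peak lists and 3541 bp in the longer-peak lists. The difference was 1184.5 bp without Ent-Pro replicate 2, 1760.5 bp without DBZ Sec-Pro and 4745.5 bp without Ent-Pro replicate 1. With the upper 50% of each list by score, Rbpj-/- Sec-Pro and Ent-Pro replicate 2 both had 0 bp. DBZ Sec-Pro then had 6190 bp and Ent-Pro replicate 1 had 2663 bp. GOB exceeded ENT by 2942 bp, with 1 library each and no test.

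The main Gfi1 region, chr5:108148992-108156235, spanned 7244 bp and held peaks of all 7 H3K4me2 libraries, in which it was split to very different degrees. In GOB it was a single peak, chr5:108149023-108156235, of 7213 bp with a score of 110.1 (percentile 88.1), and 170 of 86922 GOB peaks (0.196%) were as wide. DBZ Sec-Pro had 2 wide peaks there, of 2130 bp (score 30.2) and 4060 bp (score 36.1, percentile 69.3), beside 1 of 266 bp. In ENT the widest of 4 peaks was 4255 bp (score 21.5, percentile 62.6). The other crypt libraries showed broken cover. Rbpj-/- Sec-Pro had 6 peaks of at most 1919 bp and a top score of 12.8 (percentile 46.4). Ent-Pro replicate 1 had 5 of at most 1580 bp (top score 21.7, percentile 58.5), and Ent-Pro replicate 2 had 2, of 517 bp (score 7.30, percentile 24.1) and 374 bp (score 3.55). ISC had 7 of at most 698 bp (top score 9.91, percentile 67.6). Percentiles from lists of different length cannot show whether the mark changed between populations. Gaps between called peaks may also depend on depth and calling settings, which are unknown. As called, uncovered gaps between the outermost peaks came to 0 bp in GOB, 385 bp in DBZ Sec-Pro and 887 bp in ENT. They came to 1250 bp in Rbpj-/- Sec-Pro, 1288 bp in Ent-Pro replicate 1 and 1992 bp in ISC. Ent-Pro replicate 2 had a gap of 408 bp over a span of 1299 bp.

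Read base by base, more of the Gfi1 window was marked on the secretory side alone than on the absorptive side alone, in both crypt and villus. Of 7154 bases under any progenitor H3K4me2 peak, 718 (10.04%) lay under both Sec-Pro and neither Ent-Pro library, against 0.973% of such bases over the genome, and 0 showed the reverse, against 1.41%. All 4 progenitor libraries shared 813 bases (11.4%), against 51.7% over the genome. Ent-Pro replicate 2, with 891 bp in all, sets a ceiling on that shared part and on the reverse class. Since 813 of its bases were in the shared part, few could fall in the reverse class, which limits the crypt comparison. The longest run of the Sec-Pro type was chr5:108149880-108150209, of 330 bp, and its first 299 bp were also under the GOB peak and under no ENT peak. Of 8414 bases under GOB or ENT peaks, GOB alone held 2942 (35.0%), against 14.2% over the genome, and ENT alone held 0, against 20.4%. The GOB bases under no other library came to 1405 (16.7%), against 10.1% over the genome. As whole regions rather than bases, 0 of 4 progenitor regions at Gfi1 were called in both Sec-Pro and neither Ent-Pro library, against 0.655% over the genome.

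Some smaller Gfi1 peaks were in GOB and not in ENT. These were chr5:108146661-108147047 (387 bp, score 6.37) and chr5:108147100-108147349 (250 bp, score 5.34), with no peak of another list over them. Of these 2, 0 remained with lists of equal length and 1 with peaks within 1 kb merged. A distal region at chr5:108164892-108165455 was marked in GOB (564 bp, score 23.1), in ENT (302 bp, score 11.1) and in Ent-Pro replicate 1 (184 bp, score 2.71). It was thus found in both mature populations and in 1 crypt library.

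**Figure D2:**
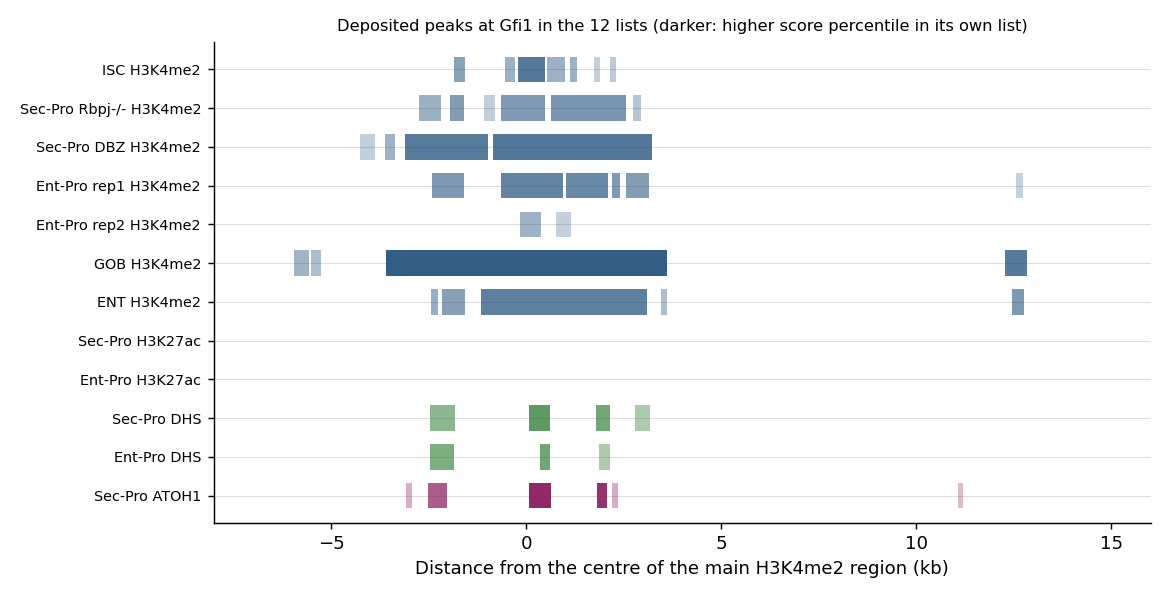
Peaks of the 12 lists at Gfi1, 1 row per list, drawn to scale against the distance in kb from the centre of the main H3K4me2 region, with darker bars for higher score percentiles in the same list. GOB holds 1 unbroken bar of 7213 bp where the crypt libraries hold several, both H3K27ac rows are empty, and 5 of the 6 ATOH1 bars lie over the main region.

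No H3K27ac peak lay in the Gfi1 window, neither in Sec-Pro nor in Ent-Pro. The nearest one was 69.9 kb from the main region in Sec-Pro (chr5:108078708-108079123) and 95.1 kb away in Ent-Pro (chr5:108251314-108251696). All 4 GOB peaks, all 4 DBZ Sec-Pro peaks and all 5 ENT peaks of the window thus lay outside progenitor H3K27ac, which holds for 38.2%, 34% and 32.1% of those whole lists. Wide peaks seldom do: the GOB peak of 7213 bp was the single one (0.588%) of 170 GOB peaks at least as wide, and the ENT peak of 4255 bp the single one (0.0922%) of 1085. Of 992 DBZ Sec-Pro peaks at least as wide as the one of 4060 bp, 4 (0.403%) lacked it, that peak among them. H3K27ac lists of GOB and ENT are not among the samples, and an empty window says that no peak was called, not that no acetylation was present.

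Open chromatin at Gfi1 was present in both progenitors and wider in Sec-Pro. Sec-Pro DHS covered 1882 bp and Ent-Pro DHS 1175 bp, with 1 library each and no test. Sec-Pro had sites at chr5:108150158-108150799 (score 15.0, percentile 39.99), chr5:108152699-108153221 (score 55.01, percentile 69.9), chr5:108154418-108154754 (score 26.7, percentile 56.4) and chr5:108155409-108155788 (score 9.68, percentile 19.6). Ent-Pro had the first 3 of these, at chr5:108150149-108150767 (score 15.9, percentile 49.6), chr5:108152964-108153235 (score 22.5, percentile 57.9) and chr5:108154470-108154753 (score 7.80, percentile 19.3), and lacked the fourth. Thus 1 of 4 Sec-Pro sites had no Ent-Pro counterpart, against 14.6% of that list, and 0 of 3 Ent-Pro sites lacked a Sec-Pro one, against 29.8%. The central site had a width of 523 bp in Sec-Pro against 272 bp in Ent-Pro, and the right ends lay 14 bp apart. Of 1905 open bases, 730 (38.3%) were open in Sec-Pro alone, against 9.24% over the genome, and 23 (1.21%) in Ent-Pro alone, against 22.1%.

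ATOH1 peaks were dense at Gfi1 and, to a lesser degree, at Klf4. The Gfi1 window held 6, covering 1722 bp. Of 23695 genome tiles of its length with a peak in any list, 1.18% held as many. The Klf4 window held 4, and of 25200 such tiles of its own length, 3.22% held as many. The highest at Gfi1, chr5:108152696-108153258 (563 bp, score 58.4), ranked 364 of 15240 and covered the central DHS. The next, chr5:108154421-108154675 (score 28.2), ranked 1213, and chr5:108150094-108150588 (score 9.06) stood at percentile 66.0. These 3 overlapped the 3 DHS that both progenitors share, by 92.9%, 100% and 87.1% of their length in Sec-Pro and by 48.3%, 80.8% and 88.9% in Ent-Pro, whose mice lack Atoh1. The other 3 scored low and touched no DHS, at chr5:108149539-108149682 (score 3.903), chr5:108154826-108154956 (score 4.15) and chr5:108163680-108163813 (score 3.47). The last lay 8148 bp from the nearest Sec-Pro DHS, centre to centre, and under no other list. The DHS present in Sec-Pro alone carried no ATOH1 peak.

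At Sox9, H3K4me2 was longest in the crypt progenitors of both lineages and shorter in both mature populations, in base pairs as deposited. The covered length was 7060 bp in ISC, 10433 bp in Rbpj-/- Sec-Pro, 11094 bp in DBZ Sec-Pro, 10849 bp in Ent-Pro replicate 1, 10317 bp in Ent-Pro replicate 2, 8079 bp in GOB and 8629 bp in ENT. Sec-Pro averaged 10763.5 ± 467 bp and Ent-Pro 10583 ± 376 bp (SD, n = 2 each), and their difference of 180.5 bp was smaller than either SD (exact two-sided permutation p = 0.667, smallest possible 0.3333). Within the sets by shortest peak the difference was 245 bp in the shorter-peak lists and 116 bp in the longer-peak lists. The difference of means turned to -150 bp without the DBZ library and to -85.5 bp without Ent-Pro replicate 2. The 4 progenitor libraries together averaged 10673 ± 362 bp (SD, n = 4), which was 2319.25 bp above the mean of GOB and ENT, and their ranges did not overlap. That excess, a comparison chosen after seeing the data, was 1092.5 bp with peaks within 1 kb merged. Per Mb of the list, ISC was the highest library at 211 bp, against 147 to 183 bp in the 4 progenitor libraries, 125 bp in GOB and 124 bp in ENT. GOB lay below ENT, with a difference of -550 bp, 1 library each and no test. Its sign turned in windows 10 kb longer at either end (125 bp) and when cover was taken per Mb of the list. The latter difference was 71.1 bp after rescaling to bp by the mean cover of the assay's lists.

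The main Sox9 region, chr11:112641058-112650180, spanned 9123 bp and held peaks of all 12 lists. It was among the widest H3K4me2 domains of the progenitors. Rbpj-/- Sec-Pro marked it with 1 peak, chr11:112641257-112650178, of 8922 bp (score 83.8, percentile 96.9), and 29 of 63293 peaks (0.0458%) were as wide. Ent-Pro replicate 1 also had 1 peak, of 9086 bp (score 156, percentile 97.6, 62 as wide). Ent-Pro replicate 2 had a peak of 7595 bp (score 123, percentile 99.4, 78 as wide) and 1 of 1187 bp (score 36.2). DBZ Sec-Pro had peaks of 3371 bp (score 91.5), 5451 bp (score 129, percentile 96.4) and 173 bp (score 10.6). Progenitor cover was thus nearly unbroken, with gaps of 0 to 128 bp in all 4 libraries.

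In the mature populations the same Sox9 region was split, with its right part broken into short peaks. GOB had 5 peaks there, the widest chr11:112642095-112647314 of 5220 bp (score 142, percentile 92.4), and the other 4 were 183 to 608 bp wide. ENT had 4, the widest chr11:112641637-112647239 of 5603 bp (score 144, percentile 97.4), and the other 3 were 279 to 975 bp wide. Gaps came to 1321 bp in GOB and 1259 bp in ENT, at nearly the same places. The main peaks ended 75 bp apart and the next ones began 13 bp apart. ISC had 8 peaks from 255 to 1465 bp (top score 18.6, percentile 95.0), with gaps of 2010 bp spread over the whole region.

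Of 10071 bases under all 4 progenitor libraries in the Sox9 window, 1403 (13.9%) lay under neither GOB nor ENT, against 9.97% over the genome. The wider runs were chr11:112641257-112641636 (380 bp) at the left edge, chr11:112647315-112647775 (461 bp) and chr11:112648181-112648421 (241 bp). The run of 461 bp was wholly under ISC H3K4me2 and under H3K27ac of both progenitors. With ISC required as well, 768 of 6986 bases (10.99%) fell in this class, against 6.56% over the genome. In contrast to Gfi1, the lineages shared nearly everything in the crypt: 10071 of 11263 progenitor bases (89.4%) were in all 4 libraries, against 51.7% over the genome, 12 (0.107%) were in both Sec-Pro and neither Ent-Pro library, against 0.973%, and 0 were the reverse, against 1.41%.

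A second Sox9 region marked in all 7 libraries lay 21.1 kb to the right, at chr11:112671306-112673171. Its covered length was 1377 bp in ISC, 1511 bp in Rbpj-/- Sec-Pro, 1866 bp in DBZ Sec-Pro, 1515 bp in Ent-Pro replicate 1, 1535 bp in Ent-Pro replicate 2, 1430 bp in GOB and 1472 bp in ENT. Apart from DBZ Sec-Pro these values lay within 158 bp of each other. A small region between, chr11:112669616-112669889, was marked in DBZ Sec-Pro (233 bp) and Ent-Pro replicate 1 (248 bp), which are both shorter-peak lists.

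**Figure D3:**
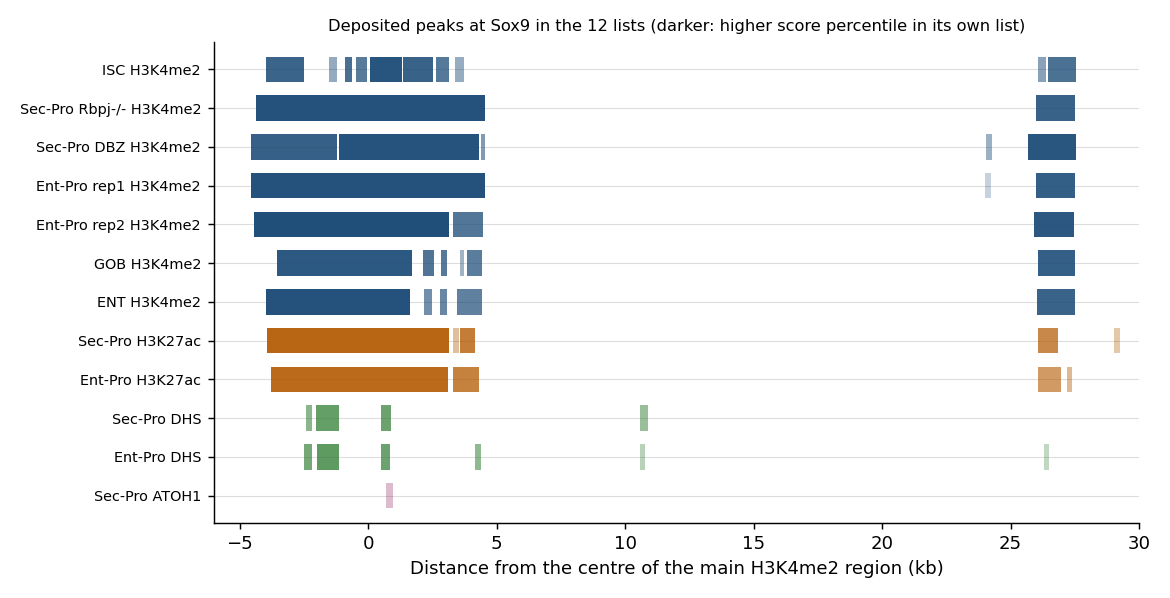
Peaks of the 12 lists at Sox9, 1 row per list, drawn to scale against the distance in kb from the centre of the main H3K4me2 region, with darker bars for higher score percentiles in the same list. The progenitor rows are nearly unbroken over the main region of 9123 bp, GOB and ENT break into short bars on the right with gaps of 1321 and 1259 bp, and both H3K27ac rows hold 1 wide bar.

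At Sox9 the Sec-Pro H3K27ac peaks covered 8909 bp and those of Ent-Pro 8998 bp, with 1 library each and no test. The widest peak was chr11:112641668-112648779 in Sec-Pro (7112 bp, score 66.7, percentile 89.6), where 119 of 74483 peaks were as wide. In Ent-Pro it was chr11:112641826-112648743 (6918 bp, score 99.7, percentile 86.6), where 187 of 68764 were as wide. Both wide peaks crossed chr11:112647315-112647775 and chr11:112648181-112648421, which lay under neither GOB nor ENT H3K4me2. They ended within the next such run to the right, chr11:112648701-112648785. A peak at chr11:112674650-112674863 (214 bp, score 4.73) was in Sec-Pro alone, and 1 at chr11:112672800-112672999 (200 bp, score 6.55) in Ent-Pro alone.

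At Sox9 the Sec-Pro DHS covered 1847 bp and the Ent-Pro DHS 2144 bp, and all 4 Sec-Pro sites had an Ent-Pro counterpart. The strongest was chr11:112643607-112644500 in Sec-Pro (894 bp, score 41.5, percentile 65.0) and chr11:112643635-112644504 in Ent-Pro (870 bp, score 42.4, percentile 69.0). Of the 6 Ent-Pro sites, 2 had no Sec-Pro counterpart, against 29.8% of that list. They were chr11:112649783-112649999 (score 11.7) at the right edge of the main region and chr11:112671930-112672129 (score 6.04) in the second region. Both were short, at 217 and 200 bp. With lists of equal length either progenitor had 1 site without a counterpart, and Sec-Pro minus Ent-Pro DHS cover turned from -297 to 103 bp. The site pair near chr11:112656202-112656507 lay outside all H3K4me2 and H3K27ac peaks.

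ATOH1 had 1 weak peak at Sox9, chr11:112646328-112646588 (261 bp, score 3.47), ranked 13441 of 15240 (percentile 7.79). It was overlapped by all 11 other lists, including the DHS of Sec-Pro (75.9% of its length) and of Ent-Pro (52.9%). At least 1 ATOH1 peak was found in 33.5% of 25200 genome tiles of the window's length that held a peak in any list.

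At Klf4, H3K4me2 was longest in the mature cells of both lineages, together with DBZ Sec-Pro, and shortest in stem cells, in base pairs as deposited. The covered length was 4478 bp in ISC, 8027 bp in Rbpj-/- Sec-Pro, 9464 bp in DBZ Sec-Pro, 8106 bp in Ent-Pro replicate 1, 7055 bp in Ent-Pro replicate 2, 9653 bp in GOB and 9604 bp in ENT. Sec-Pro averaged 8745.5 ± 1016 bp and Ent-Pro 7580.5 ± 743 bp (SD, n = 2 each), a difference of 1165 bp with overlapping libraries (exact two-sided permutation p = 0.667, smallest possible 0.3333). The difference was 1358 bp in the shorter-peak lists and 972 bp in the longer-peak lists, and it was 446.5 bp without DBZ Sec-Pro, 639.5 bp without Ent-Pro replicate 2 and 1883.5 bp without Rbpj-/- Sec-Pro. GOB and ENT differed by 49 bp, and the difference was 1084 bp with the upper 50% of each list by score and -331 bp with peaks within 1 kb merged. The 4 progenitor libraries averaged 8163 ± 990 bp (SD, n = 4). In a comparison chosen after seeing the data, their difference from the mean of GOB and ENT was -1465.5 bp. All 4 lay below both mature libraries as deposited, but DBZ Sec-Pro exceeded ENT with the upper 50% of each list (8817 against 8017 bp) and with lists of equal length (8817 against 8775 bp), and exceeded GOB with peaks within 1 kb merged (11271 against 11058 bp). Per Mb of the list, ISC with 134 bp exceeded DBZ Sec-Pro with 126 bp and the Ent-Pro libraries with 109.6 and 122 bp, and Rbpj-/- Sec-Pro with 141 bp exceeded ENT with 138 bp.

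The main Klf4 region, chr4:55541766-55545515, and its neighbour chr4:55545547-55547771 were marked in all 7 libraries. In the main region the covered length was 2382 bp in ISC, 3381 bp in Rbpj-/- Sec-Pro, 3303 bp in DBZ Sec-Pro, 3350 bp in Ent-Pro replicate 1, 3320 bp in Ent-Pro replicate 2, 3718 bp in GOB and 3672 bp in ENT. The 4 progenitor values thus lay within 78 bp of each other, with ISC below and the mature cells above. In the neighbour the top score was 24.3 in ISC (percentile 99.2), 69.7 in Rbpj-/- Sec-Pro (92.3), 94.0 in DBZ Sec-Pro (87.0), 126 in Ent-Pro replicate 1 (92.2), 117 in Ent-Pro replicate 2 (99.1), 161 in GOB (94.8) and 101.6 in ENT (89.3). Every library thus ranked it above at least 87.0% of its own peaks, ISC included.

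Between the 2 regions lay a gap free of H3K4me2 peaks, whose width differed between populations. It measured 972 bp in ISC, 328 bp in Rbpj-/- Sec-Pro, 475 bp in DBZ Sec-Pro, 361 bp in Ent-Pro replicate 1, 233 bp in Ent-Pro replicate 2, 63 bp in GOB and 79 bp in ENT. ISC had the widest gap and GOB the narrowest. The gap in ENT was bounded by a weak peak, chr4:55545332-55545515 (184 bp, score 2.71, percentile 1.03), and without that peak it measured 339 bp, within the range of the progenitors. The gap coincided with a strong DHS, chr4:55545009-55546061 in Sec-Pro (1053 bp, score 182, rank 1360 of 31980) and chr4:55544995-55546062 in Ent-Pro (1068 bp, score 173, rank 2498 of 38595). In 6 libraries the gap lay wholly under the Sec-Pro DHS, and in ISC 963 of its 972 bp did. An ATOH1 peak, chr4:55545454-55545781 (328 bp, score 34.2, rank 906 of 15240), lay wholly within the DHS of both progenitors. In the main region, ATOH1 peaks chr4:55543980-55544254 (score 4.88, percentile 27.4) and chr4:55544494-55544668 (score 7.31, percentile 55.9) lay under H3K4me2 of every library and H3K27ac of both progenitors. They touched no DHS. Of 4 ATOH1 peaks at Klf4, 1 overlapped a Sec-Pro DHS (33.9% of all ATOH1 peaks) and 1 an Ent-Pro DHS (37%).

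**Figure D4:**
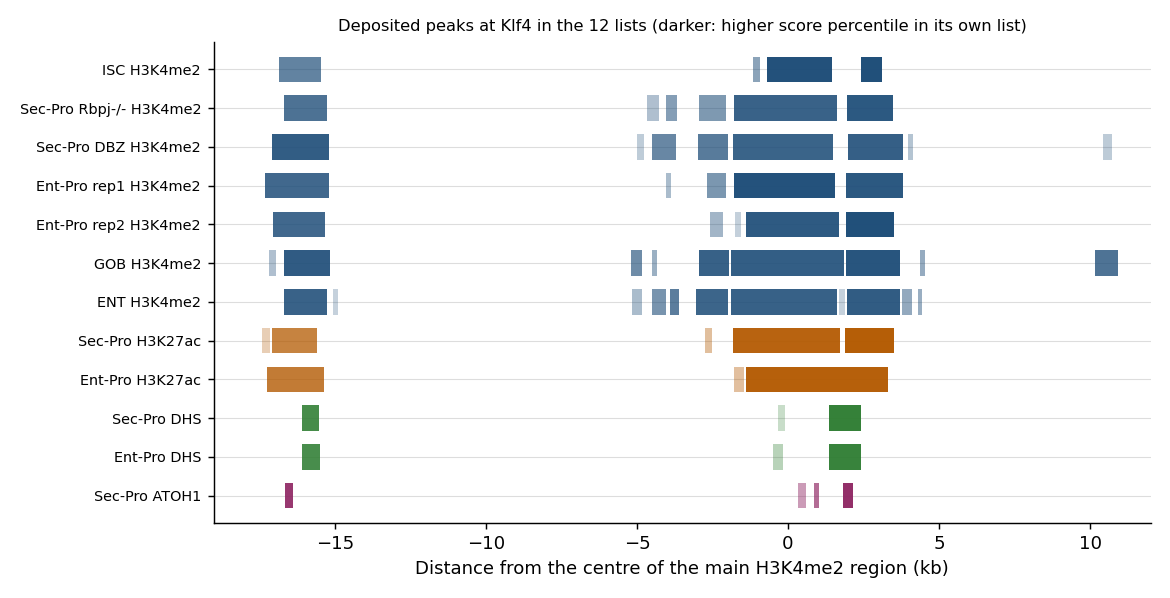
Peaks of the 12 lists at Klf4, 1 row per list, drawn to scale against the distance in kb from the centre of the main H3K4me2 region, with darker bars for higher score percentiles in the same list. The gap right of the main region narrows from 972 bp in ISC to 63 bp in GOB over the DHS and ATOH1 bars, and the rightmost bar is present in GOB and DBZ Sec-Pro.

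Left of the main Klf4 region, chr4:55540603-55541674 was marked in every H3K4me2 library but ISC. The score was 11.8 in Rbpj-/- Sec-Pro, 30.2 in DBZ Sec-Pro, 12.8 in Ent-Pro replicate 1, 7.12 in Ent-Pro replicate 2, 95.3 in GOB and 70.9 in ENT. Its percentile was 86.1 in GOB and 82.9 in ENT and lay between 21.8 and 66.1 in the progenitors, each within its own list. Further left, chr4:55538968-55540031 was covered over 789 bp in Rbpj-/- Sec-Pro, 776 bp in DBZ Sec-Pro, 158 bp in Ent-Pro replicate 1, 146 bp in GOB and 741 bp in ENT, with no peak in Ent-Pro replicate 2 or ISC. Both Sec-Pro libraries exceeded both Ent-Pro libraries here, while the villus order was the reverse, with ENT above GOB. Of 10183 progenitor bases in the window, 657 (6.45%) were in both Sec-Pro and neither Ent-Pro library, against 0.973% over the genome, and 5 (0.0491%) were the reverse, against 1.41%.

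The region chr4:55526332-55528468, some way left of the others, carried every mark. Its H3K4me2 cover was 1399 bp in ISC, 1427 bp in Rbpj-/- Sec-Pro, 1883 bp in DBZ Sec-Pro, 2120 bp in Ent-Pro replicate 1, 1710 bp in Ent-Pro replicate 2, 1746 bp in GOB and 1404 bp in ENT, with no order by lineage. It held a DHS in Sec-Pro (chr4:55527555-55528127, score 115, percentile 84.8) and in Ent-Pro (chr4:55527564-55528143, score 107, percentile 83.3). An ATOH1 peak at chr4:55527008-55527262 (score 21.3, percentile 88.0) lay beside that DHS, 706 bp away centre to centre in Sec-Pro, and did not overlap it.

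Goblet cells and enterocytes each had Klf4 peaks without a counterpart. In GOB these were chr4:55553818-55554566 (749 bp, score 29.7, percentile 71.7), which DBZ Sec-Pro also marked weakly (270 bp, score 4.06), and chr4:55526453-55526698 (score 4.96). In ENT they were chr4:55539728-55540031 (score 23.2), chr4:55547425-55547745 (score 7.79) and chr4:55528594-55528739 (score 2.71). Over GOB or ENT peaks together, 1330 of 10934 bases (12.2%) were in GOB alone and 1281 (11.7%) in ENT alone, against 14.2% and 20.4% over the genome. Both shares lay below those over the genome. Of the 9604 bases under ENT, 497 (5.17%) were under no other library, against 8.83% over the genome, and 487 of 8323 bases under both GOB and ENT (5.85%) were under no crypt library, against 9.11%.

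At Klf4 the Sec-Pro H3K27ac peaks covered 7162 bp and those of Ent-Pro 6913 bp. Sec-Pro had peaks chr4:55541823-55545359 (3537 bp, score 78.4) and chr4:55545538-55547160 (1623 bp, score 117, percentile 96.2) where Ent-Pro had chr4:55542246-55546965 (4720 bp, score 171, percentile 94.3) beside the short peak chr4:55541863-55542175 (313 bp, score 5.87). The 178 bp between the Sec-Pro peaks lay under the DHS. A short peak at chr4:55540903-55541115 (213 bp, score 5.46) was in Sec-Pro alone. Sec-Pro DHS covered 1875 bp and Ent-Pro DHS 2005 bp, with 3 sites in both and no site in 1 list only.

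Across the 3 windows, ATOH1 peaks lay in open chromatin about as often in Ent-Pro, which lack Atoh1, as in Sec-Pro. Of the 11 ATOH1 peaks, 5 overlapped a Sec-Pro DHS and the same 5 an Ent-Pro DHS, against 33.9% and 37% of all ATOH1 peaks, and 0 were open in Sec-Pro alone, against 2.17%. H3K4me2 overlapped 7 of 11 in ISC (37.7% of all ATOH1 peaks), 9 in Rbpj-/- Sec-Pro (48.8%), 10 in DBZ Sec-Pro (58.9%), 9 in Ent-Pro replicate 1 (58.1%), 6 in Ent-Pro replicate 2 (49.7%), 10 in GOB (62.8%) and 9 in ENT (55%). H3K27ac overlapped 5 of 11 in Sec-Pro (47.7%) and in Ent-Pro (51.4%), and these were the 5 peaks at Sox9 and Klf4. H3K4me2 of at least 1 library without a DHS was found at 5 of 11, against 32.4%. The 6 at Gfi1 lay outside H3K27ac, as did 132 of the 364 ATOH1 peaks (36.3%) that scored at least as high as the highest there. Seen from the open sites, 3 of 4 Sec-Pro DHS and 3 of 3 Ent-Pro DHS at Gfi1 carried an ATOH1 peak, against 15.1% and 13.7% of those lists, while Sox9 had 1 of 4 and 1 of 6 and Klf4 1 of 3 in both. Sec-Pro H3K27ac lay over 6 of 11 Sec-Pro DHS (44% of that list), with 0 of 4 at Gfi1, 3 of 4 at Sox9 and 3 of 3 at Klf4. Ent-Pro H3K27ac lay over 8 of 12 Ent-Pro DHS (46.1%), with 0 of 3 at Gfi1, 5 of 6 at Sox9 and 3 of 3 at Klf4. The windows were proposed as loci of secretory genes, so these counts describe the loci and carry no test.

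**Figure D5:**
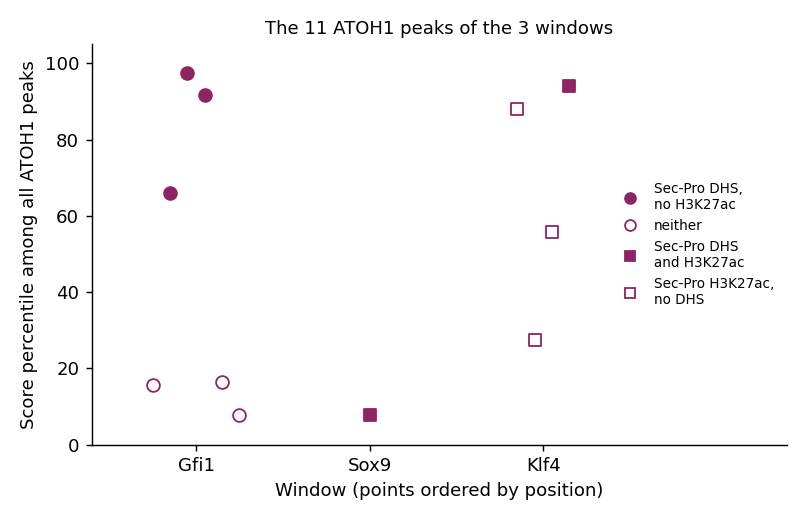
Score percentile (0 to 100, among all 15240 ATOH1 peaks) of the 11 ATOH1 peaks, in order of position within each window, with filled symbols for overlap with a Sec-Pro DHS and squares for overlap with Sec-Pro H3K27ac. The 3 highest at Gfi1 (66.0 to 97.6) are open without H3K27ac, while all 5 at Sox9 and Klf4 lie under H3K27ac.

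Counted as whole regions or peaks, most comparisons gave lineage shares near or below those over the genome. Sec-Pro H3K4me2 peaks without an Ent-Pro peak, given last, were more frequent than over the genome. Of 15 progenitor H3K4me2 regions, 0 were called in both Sec-Pro and neither Ent-Pro library (0.655% of 91486 regions over the genome), 0 in both Ent-Pro and neither Sec-Pro library (1.11%) and 7 in all 4 (46.4%). With genome shares as low as 0.655% and 1.11%, 0 of 15 says little. Of 17 H3K4me2 regions, 6 were in all 7 libraries (24.5%). GOB had 4 of 19 peaks that no ENT peak overlapped (24.8%), 2 at Gfi1 and 2 at Klf4, and ENT had 3 of 21 that no GOB peak overlapped (29.2%), all at Klf4. No stem cell or progenitor peak overlapped 3 of 19 GOB peaks (25.3%) or 3 of 21 ENT peaks (21.5%). H3K27ac had 2 of 10 peaks in Sec-Pro alone (20.2%) and 1 of 7 in Ent-Pro alone (22.6%), and DHS 1 of 11 in Sec-Pro alone (14.6%) and 2 of 12 in Ent-Pro alone (29.8%). Rbpj-/- Sec-Pro had 6 of 14 peaks with no peak of Ent-Pro replicate 2 over them (13.7%), 4 of them at Gfi1, and 0 of 10 the other way (16.4%). DBZ Sec-Pro had 5 of 17 without Ent-Pro replicate 1 (18.4%) and Ent-Pro replicate 1 had 1 of 14 without DBZ Sec-Pro (15.9%). Lists of unequal length enter these shares, and with few members each one moves a share by several percentage points.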

How the data were processed

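The values are peaks from chromatin immunoprecipitation sequencing (H3K4me2, H3K27ac, ATOH1) and DNase-seq, 1 list for each of 12 libraries. The study has 15 samples, of which 3 are input DNA and were left out. The tools named in the submitters' processing notes are MACS2, Bowtie 0.12.7 and CASAVA 1.7, with build mm9, and their settings are not given in the sources at hand. Each deposited list gives position, name and the authors' score, without pooling of replicates; the score's unit is not named, and depth is unknown.

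In Python 3.11.15 (NumPy 2.4.6, SciPy 1.17.1, matplotlib 3.10.9), peaks overlapping the windows by at least 1 bp were taken as members, with 1-based mm9 positions. The windows and comparisons were chosen with earlier results of these data known. Covered length is the number of bases under merged peaks; H3K4me2 regions are overlapping peaks of the libraries merged. Overlap means at least 1 bp. Sec-Pro and Ent-Pro covered lengths were compared by the exact two-sided permutation test; all other comparisons have 1 library each and no test. Percentages over the genome are the same counts over all peaks, regions or bases of the lists, and genome tiles are consecutive stretches of a window's length that hold a peak of any list. Regions named were, in each window, the H3K4me2 region with the most covered bases, every ATOH1 peak, DHS of 1 progenitor, and at most 5 peaks of each class without a counterpart by score; other regions were chosen after their values were seen. The functions for overlap and covered length were tested on simulated lists. Promoters are from RefSeq. Other secretory genes were not placed, since no mm9 gene table was used here. Alternatives tried were score cuts, equal list lengths, merging, other overlaps, longer windows, central ATOH1 bases, cover per Mb, lists of 1 kind and leaving out each library.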

Additional observations from a re-analysis of the deposited data

Results flagged for a closer look

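At Sox9 the secretory libraries lay above the absorptive ones in the crypt within the sets by shortest peak, and below them in the villus. DBZ Sec-Pro covered 245 bp more H3K4me2 than Ent-Pro replicate 1, and Rbpj-/- Sec-Pro 116 bp more than Ent-Pro replicate 2, while GOB minus ENT was -550 bp. The opposite sign in crypt and villus is what drew attention. GOB minus ENT became 125 bp in windows 10 kb longer at either end. With cover per Mb of the list, rescaled to bp by the mean cover of the assay's lists, it became 71.1 bp. The difference between the 2 contrasts was not tested, and the crypt differences are smaller than the SD within either progenitor (467 and 376 bp).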

How the results depend on the processing

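At Gfi1, mean Sec-Pro minus mean Ent-Pro and GOB minus ENT H3K4me2 cover stayed above 0 under every alternative run. With the upper 50% of each list, that Sec-Pro excess of 1763.5 bp came from DBZ Sec-Pro alone. Rbpj-/- Sec-Pro then had 0 bp, below Ent-Pro replicate 1 with 2663 bp. No H3K27ac peak entered the Gfi1 window. The progenitor mean minus the mature mean, chosen after seeing the data, stayed below 0 at Gfi1 (-2789 bp as deposited) and above 0 at Sox9. All 6 single-library differences at Sox9 and Klf4 (GOB minus ENT, H3K27ac and DHS) changed sign under at least 1 alternative, and the cause was not tested unless fewer peaks or libraries enter by construction. Leaving out 1 library at a time gave Sec-Pro minus Ent-Pro values of 1184.5 to 4745.5 bp at Gfi1, -150 to 511 bp at Sox9 (-85.5 bp without Ent-Pro replicate 2) and 446.5 to 1883.5 bp at Klf4. It also gave 0 to 2 and 0 to 3 regions of Sec-Pro alone at Gfi1 and Klf4 and 0 to 1 of Ent-Pro alone at Gfi1. Fewer libraries have to meet the rule in these runs, and no share over the genome was taken for these counts. They therefore show nothing particular to the loci. No paired analysis was possible because the labels pair no Sec-Pro with an Ent-Pro library; exchanging libraries only within lists of the same shortest peak, which is no pairing of the labels, gave p = 0.5 in an exact permutation test at all 3 genes, the smallest it allows. In the lists with a shortest peak of 146 bp, DBZ Sec-Pro had 2 of 4 peaks at Gfi1 and 3 of 8 at Klf4 without Ent-Pro replicate 1 (18.4% over the genome). Ent-Pro replicate 1 had 1 of 6 at Gfi1 without DBZ Sec-Pro (15.9%). In the lists of 200 bp, Rbpj-/- Sec-Pro had 4 of 6 at Gfi1 and 2 of 6 at Klf4 without Ent-Pro replicate 2 (13.7%). Those 4 were all parts of the main Gfi1 region, where Ent-Pro replicate 2 covered 891 bp.

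With cover per Mb of the list (rescaled to bp by the mean cover of the assay's lists), Sec-Pro minus Ent-Pro DHS was 945 bp at Gfi1 (main value 707), 7.11 bp at Sox9 (-297) and 167 bp at Klf4 (-130), H3K27ac 525 bp at Sox9 (-89) and 732 bp at Klf4 (249), and GOB minus ENT at Sox9 71.1 bp (-550). With lists of equal length, DHS was 103 bp at Sox9 and 227 bp at Klf4, and H3K27ac -29 bp at Klf4; Gfi1 had 0 peaks of GOB alone and 1 ATOH1 peak under ISC, Klf4 1 DHS and 1 region of Sec-Pro alone, and Sox9 1 DHS of either progenitor alone. With the upper 50% of each list, DHS was 588, -223 and -22 bp at Gfi1, Sox9 and Klf4, H3K27ac 575 bp at Sox9 and 71 bp at Klf4, and GOB minus ENT at Klf4 1084 bp (49). Gfi1 then had 3 ATOH1 peaks, of which 3 lay under GOB and DBZ Sec-Pro, 2 under ENT and Ent-Pro replicate 1, 1 under ISC and Ent-Pro DHS and 0 under Rbpj-/- Sec-Pro and Ent-Pro replicate 2, and 1 peak of GOB alone; Sox9 had 0 ATOH1 peaks, hence 0 under each of the other 11 lists, 1 DHS and 0 H3K27ac peaks of Ent-Pro alone; Klf4 had 0 H3K27ac peaks of Sec-Pro alone and 1 peak of ENT alone. With peaks within 1 kb merged, DHS was 1361 bp at Gfi1 and -310 bp at Sox9, H3K27ac -269 bp at Sox9 and 1116 bp at Klf4, GOB minus ENT -331 bp at Klf4, and the progenitor mean minus the mature mean 1092.5 bp at Sox9 (2319.25; this comparison was chosen after seeing the data). Gfi1 then had 3 ATOH1 peaks under GOB and under DBZ Sec-Pro, 0 DHS of Sec-Pro alone and 1 peak of GOB alone; Sox9 had 0 H3K27ac peaks of Ent-Pro alone; Klf4 had 2 ATOH1 peaks, 2 under each list that covered 4 before, 0 H3K27ac peaks of Sec-Pro alone, 0 peaks of ENT alone and 1 of GOB alone. With windows 10 kb longer at either end, Gfi1 DHS was 770 bp, with 2 ATOH1 peaks under Ent-Pro replicate 2; at Sox9, H3K27ac was 522 bp, GOB minus ENT 125 bp and the progenitor mean minus the mature mean 2692.75 bp, with 2 ATOH1 peaks, both under all H3K4me2 and H3K27ac lists, 2 H3K27ac peaks of Sec-Pro alone and 1 peak of GOB alone. When 50% of a peak had to be overlapped, Gfi1 had 2 DHS, and Klf4 2 H3K27ac peaks and 1 region, of Sec-Pro alone. The central 200 bp of ATOH1 peaks changed none of 33 counts. Depth is unknown, so a missing peak may be a peak below the calling threshold.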
